A study of Gallus gallus with 8 samples.

Results

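The genes described here encode 10 core transcription factors of heart development: NKX2-5, GATA4, GATA5, GATA6, TBX5, TBX20, HAND2, MEF2A, MEF2C and ISL1. Their rows were found by gene symbol. Of the 10, 9 had a row among the 15873 genes of the table, and 8 passed the filter on low values (at least 1 RPKM in at least 2 libraries, passed by 11556 genes). HAND2 had no row under that symbol and was not analysed here. RPKM is a read number scaled by the length of the gene model and by the mapped reads of the library.

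Messenger RNA was sequenced from chicken embryonic hearts taken 16 d into incubation, with 8 libraries from 4 breeds. The breeds were Linzhi Tibetan and Lhasa White, named after places on the Tibetan plateau and grouped here as highland breeds (4 libraries), and Chahua and White Leghorn (written White leghom in the labels), grouped as lowland breeds (4 libraries). Each breed had 2 libraries, without a statement in the labels that they came from different embryos. The libraries of Lhasa White, and likewise those of White Leghorn, differed in W-linked transcripts and so were not repeats of 1 sample. In Linzhi Tibetan and Chahua the W-linked transcripts do not tell the libraries apart. Other transcripts differed, such as the globin HBAA at 3898 and 14523 RPKM in Linzhi Tibetan and the myosin MYH7 at 1.03 and 115 RPKM in Chahua. In these breeds the spread between libraries, on which the p-values also rest, may still not be that between embryos. The labels give no treatment, sex, heart region or incubation altitude, and altitude of origin cannot be told apart from breed.

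These factors bind DNA and switch on the genes of contraction, conduction and chamber identity in heart muscle. NKX2-5 and ISL1 carry a homeodomain, the GATA factors carry zinc fingers, TBX5 and TBX20 carry a T-box, and the MEF2 factors carry a MADS-box. NKX2-5, GATA4, TBX5 and MEF2C act together on shared cardiac promoters, as is known from mouse, whereas ISL1 marks progenitors of the second heart field and is shut off in most working heart muscle. In the mature heart ISL1 is known from the sinus node and from cardiac nerve cells.

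Mapped reads per library, recovered from the RPKM values, ranged from 17245669 to 22157553. Heart muscle genes were high in every library, with TNNT2, cardiac troponin T, at 5502 to 8848 RPKM. Lhasa White 2 and Chahua 2 stood apart from the other 6 libraries in transcripts of the atria. MYH7, a myosin of chicken atria, reached 1457 RPKM in Lhasa White 2 and 115 RPKM in Chahua 2, against 0.878 to 7.07 RPKM in the other 6. W-linked transcripts, which only female birds carry, summed to 815, 892, 881 and 981 RPKM in Lhasa White 2, Chahua 1, Chahua 2 and White Leghorn 1, and to 0.0946 to 8.33 RPKM in the other 4. Marker sums of other cells varied too, from 4945 to 21710 RPKM for 6 blood genes and 288 to 440 RPKM for 10 endothelial genes. The sum of 9 fibroblast and epicardial genes was 2767 RPKM in Lhasa White 2 and 884 to 1546 RPKM in the other libraries. Among them, DCN, PDGFRA and TBX18 were above the other 6 in both Lhasa White 2 and Chahua 2. COL1A2 was above the other 6 in Lhasa White 2 and below them in Chahua 2. The sum of 4 liver genes, nearly all of it from APOA1, was 316 and 303 RPKM in Lhasa White 2 and Chahua 2. In the other 6 it was 71.7 to 142 RPKM. These are bulk samples, in which fewer cells of a type and less RNA per cell cannot be told apart.

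**Figure D1:**
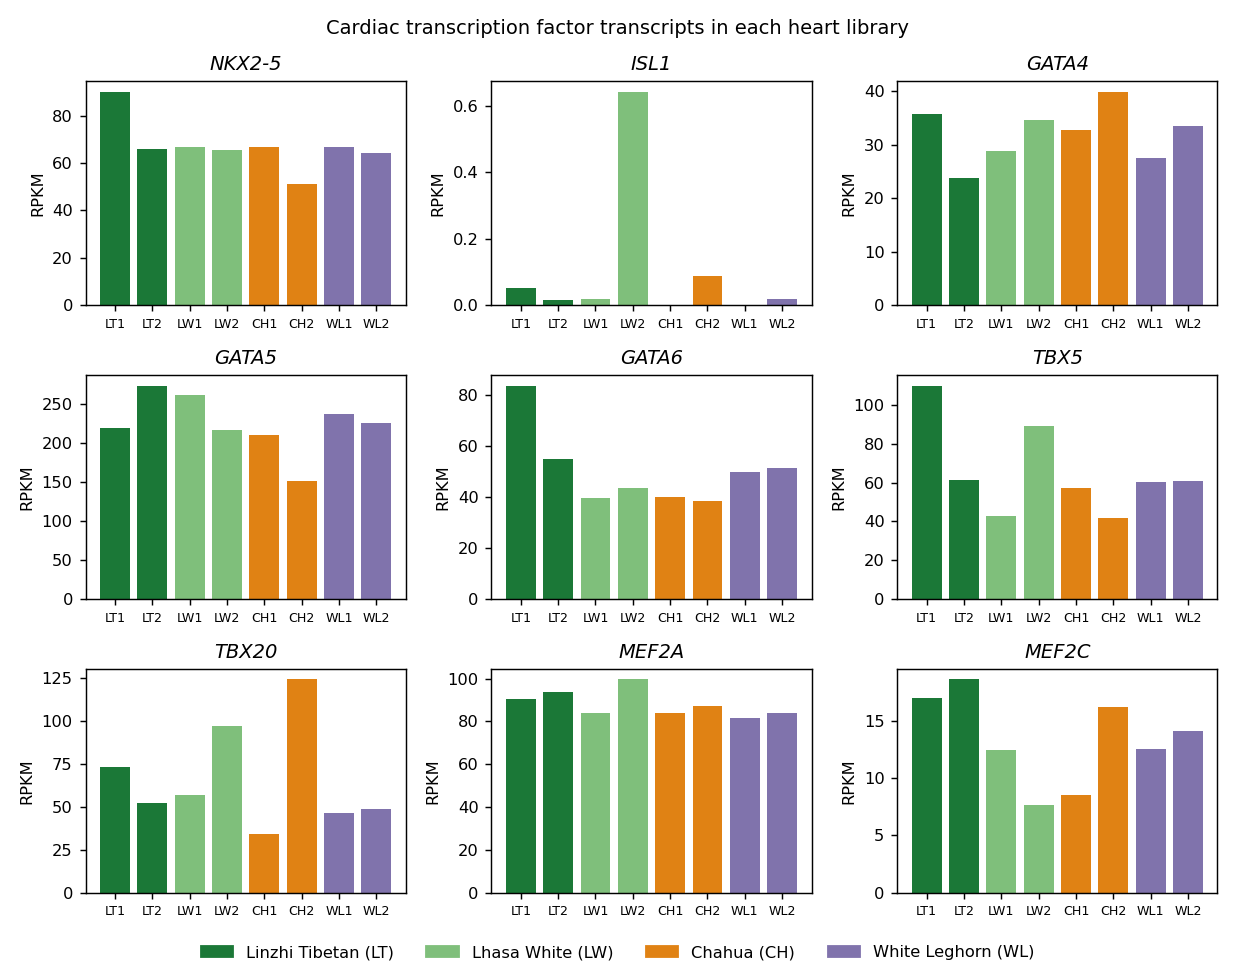
Level of each gene in RPKM (linear axes from 0) in each of the 8 libraries, highland breeds left of lowland breeds and colours marking breeds. MEF2A is nearly level at 81.5 to 99.7 RPKM, TBX20 peaks in Chahua 2 at 124 RPKM and ISL1 in Lhasa White 2 at 0.642 RPKM.

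The order of levels was steady at its ends and loose in its middle. GATA5 was the highest in 8 of 8 libraries, with 224 ± 37.4 RPKM (SD, n = 8), and exceeded 97.3% to 98.4% of all genes of its library. MEF2A followed at 88.1 ± 6.18 RPKM. GATA5 exceeded MEF2A in 8 of 8 libraries by 1.73 to 3.13 times, and their ranges did not overlap.

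NKX2-5 at 67.2 ± 10.7 RPKM, TBX20 at 66.5 ± 30.1 RPKM and TBX5 at 65.4 ± 23.1 RPKM (SD, n = 8) had means closer together than their spreads. NKX2-5 lay above TBX20 in 6 of 8 libraries, and TBX20 above TBX5 in 3 of 8, so these 3 genes cannot be ranked. MEF2A lay above NKX2-5 in 8 of 8 libraries although their ranges overlapped. TBX20 took place 2 in Chahua 2, place 3 in Lhasa White 2, place 4 in Lhasa White 1 and place 6 in the other 5 libraries.

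GATA6 averaged 50.3 ± 14.9 RPKM and GATA4 32.1 ± 5.14 RPKM. GATA6 exceeded GATA4 in 7 of 8 libraries, the exception being Chahua 2. MEF2C was lower again, at 13.4 ± 3.91 RPKM, and below GATA4 in 8 of 8 libraries with no overlap of ranges. MEF2A, NKX2-5, TBX20, TBX5 and GATA6 exceeded 88.3% to 96.9% of all genes of a library, GATA4 82.5% to 89.8% and MEF2C 57.0% to 78.1%. ISL1 came last in 8 of 8 libraries, at 0 to 0.642 RPKM.

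These levels depend on the gene models behind the table, whose lengths, recovered from the values, ran from 905 bases for GATA6 to 5766 bases for MEF2A. The 8 genes past the filter had 267 to 11960 reads per library, so counting error (Poisson) was at most 6.12% of a value. Intervals and floors of single values, and intervals of ratios between 2 libraries, cover counting error only. Intervals of log2 differences between breeds rest on the spread between libraries. Reads that paralogs share, as the GATA and MEF2 genes may, cannot be told apart in these values.

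**Figure D2:**
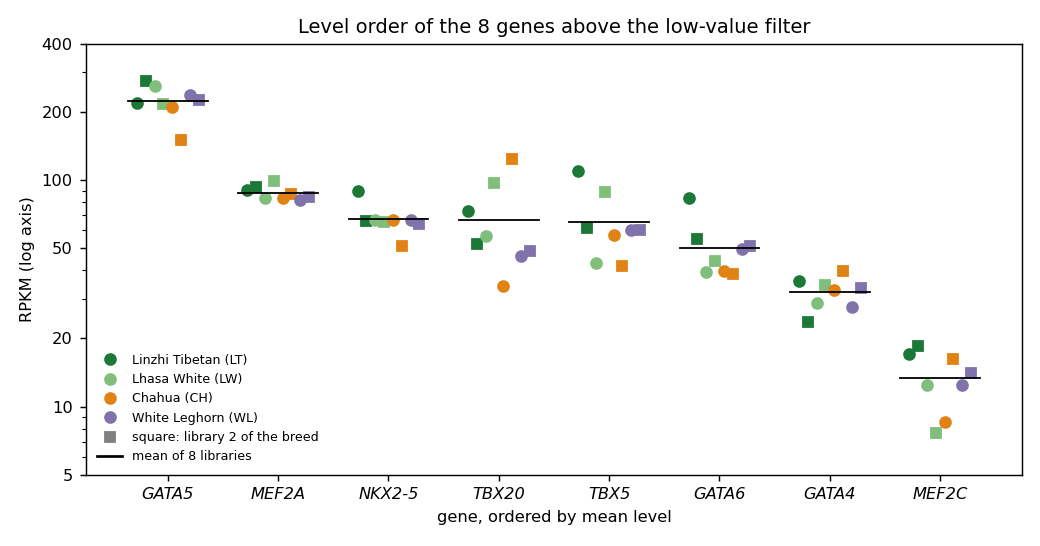
RPKM (log axis) of the 8 genes past the low-value filter, ordered by mean; points are libraries coloured by breed, squares are library 2 of a breed and black lines are means of 8 libraries. GATA5 stands clear at the top and MEF2C at the bottom, while NKX2-5, TBX20 and TBX5 share means of 65.4 to 67.2 RPKM.

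NKX2-5 (ENSGALG00000002886), the homeodomain factor at the head of the cardiac programme, had 90.1 and 66.0 RPKM in Linzhi Tibetan, 66.8 and 65.3 RPKM in Lhasa White, 66.8 and 51.0 RPKM in Chahua, and 66.8 and 64.4 RPKM in White Leghorn. Of the 8 libraries, 6 lay between 64.4 and 66.8 RPKM, with Linzhi Tibetan 1 above and Chahua 2 below the rest. Highland libraries averaged 72.1 ± 12.1 RPKM and lowland libraries 62.3 ± 7.59 RPKM (SD, n = 4 each). The log2 difference was 0.20 (95% interval -0.11 to 0.51, limma adjusted p = 0.999).

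ISL1 (ENSGALG00000014884), the LIM-homeodomain factor of heart progenitors, had 3 and 1 reads in Linzhi Tibetan, 1 and 35 reads in Lhasa White, 0 and 5 reads in Chahua, and 0 and 1 reads in White Leghorn. Its level in Lhasa White 2 was 0.642 RPKM (exact Poisson 95% interval 0.448 to 0.895). In Chahua 2 it was 0.0886 RPKM (0.0288 to 0.207), and in the other 6 libraries it was at most 0.0516 RPKM. In those 6 a floor of 3 reads, the 1-sided 95% upper limit of a count of 0, corresponds to 0.0474 to 0.0609 RPKM. The 2-sided interval of a count of 0 reached 0.0749 RPKM in Chahua 1. The interval of Lhasa White 2 lay above those of the other 7 libraries. ISL1 failed the low-value filter and was not tested between breeds. Without the filter its log2 difference between highland and lowland breeds was 0.17 (SE 0.146, limma adjusted p = 0.999).

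GATA5 (ENSGALG00000005352), which in chicken and zebrafish acts in early heart muscle and endocardium, made up 64.7% to 79.3% of the summed RPKM of GATA4, GATA5 and GATA6. It had 219 and 274 RPKM in Linzhi Tibetan, 262 and 217 RPKM in Lhasa White, 210 and 151 RPKM in Chahua, and 237 and 226 RPKM in White Leghorn. Both Chahua libraries were below all others. Highland libraries averaged 243 ± 29.5 RPKM and lowland libraries 206 ± 38.1 RPKM (SD, n = 4 each). The groups overlapped, with a log2 difference of 0.25 (95% interval -0.08 to 0.58, limma adjusted p = 0.999).

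GATA6 (ENSGALG00000014976), a zinc finger factor of heart and gut, had 83.9 and 55.2 RPKM in Linzhi Tibetan, 39.5 and 43.8 RPKM in Lhasa White, 39.9 and 38.5 RPKM in Chahua, and 49.9 and 51.4 RPKM in White Leghorn. Both Linzhi Tibetan libraries were above the other 6, and the Lhasa White and Chahua libraries formed the low end. Highland libraries averaged 55.6 ± 19.98 RPKM and lowland libraries 44.9 ± 6.64 RPKM (SD, n = 4 each), a log2 difference of 0.25 (95% interval -0.07 to 0.57, limma adjusted p = 0.999). The estimate between the highland breeds was larger, with a log2 difference of 0.70 for Linzhi Tibetan minus Lhasa White (SE 0.195, 95% interval 0.24 to 1.15). That pair had an unadjusted limma p of 0.00851 and an adjusted p of 0.546.

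GATA4 (ENSGALG00000016662), the partner of NKX2-5 and TBX5 in heart muscle, was the only tested gene with a lower highland mean. It had 35.8 and 23.7 RPKM in Linzhi Tibetan, 28.8 and 34.6 RPKM in Lhasa White, 32.8 and 39.9 RPKM in Chahua, and 27.6 and 33.5 RPKM in White Leghorn. Linzhi Tibetan held the lowest library and Chahua the highest, and highland and lowland libraries overlapped. Highland libraries averaged 30.7 ± 5.59 RPKM and lowland libraries 33.4 ± 5.05 RPKM (SD, n = 4 each), with a log2 difference of -0.12 (95% interval -0.50 to 0.25, limma adjusted p = 0.999). Without Linzhi Tibetan 2 the difference was 0.02.

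TBX5 (ENSGALG00000008253), a T-box factor of the atria and left ventricle in mouse and of the forelimb, had 110 and 61.4 RPKM in Linzhi Tibetan, 43.0 and 89.1 RPKM in Lhasa White, 57.3 and 41.8 RPKM in Chahua, and 60.2 and 60.6 RPKM in White Leghorn. Linzhi Tibetan 1 and Lhasa White 2 were high, and the second library of these breeds lay on different sides of the first. Highland libraries averaged 75.8 ± 29.6 RPKM and lowland libraries 55.0 ± 8.90 RPKM (SD, n = 4 each). The log2 difference was 0.39 (95% interval -0.25 to 1.02, limma adjusted p = 0.999), and 0.02 without Lhasa White 2 and Chahua 2.

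TBX20 (ENSGALG00000012151), a T-box factor of heart muscle and endocardium, had 73.0 and 52.3 RPKM in Linzhi Tibetan, 56.9 and 97.0 RPKM in Lhasa White, 34.2 and 124 RPKM in Chahua, and 46.2 and 48.7 RPKM in White Leghorn. Chahua held both the lowest and the highest library. Highland libraries averaged 69.8 ± 20.2 RPKM and lowland libraries 63.3 ± 41.0 RPKM (SD, n = 4 each). The log2 difference was 0.28 (95% interval -0.62 to 1.18, limma adjusted p = 0.999). It was -0.18 without Chahua 1, 0.74 without Chahua 2 and 0.55 without Lhasa White 2 and Chahua 2.

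MEF2A (ENSGALG00000007100), a MADS-box factor that holds the level of muscle and mitochondrial genes in the grown heart, was the steadiest of these genes. It had 90.5 and 93.6 RPKM in Linzhi Tibetan, 83.9 and 99.7 RPKM in Lhasa White, 83.8 and 87.4 RPKM in Chahua, and 81.5 and 84.2 RPKM in White Leghorn. Its range over the libraries, 0.29 on the log2 scale, was wider than that of 4.41% of the tested genes. Highland libraries averaged 91.9 ± 6.58 RPKM and lowland libraries 84.2 ± 2.46 RPKM (SD, n = 4 each), with a log2 difference of 0.12 (95% interval -0.09 to 0.33, limma adjusted p = 0.999). MEF2A made up 83.4% to 92.9% of the summed RPKM of MEF2A and MEF2C.

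MEF2C (ENSGALG00000014645), the MEF2 factor of the early heart tube, had 17.0 and 18.6 RPKM in Linzhi Tibetan, 12.4 and 7.62 RPKM in Lhasa White, 8.52 and 16.2 RPKM in Chahua, and 12.5 and 14.1 RPKM in White Leghorn. The 2 highest values were those of Linzhi Tibetan, and the 2 lowest came from Lhasa White 2 and Chahua 1. Highland libraries averaged 13.9 ± 4.94 RPKM and lowland libraries 12.8 ± 3.25 RPKM (SD, n = 4 each). The log2 difference was 0.07 (95% interval -0.45 to 0.59, limma adjusted p = 0.999), 0.45 without Lhasa White 2 and Chahua 2, and -0.10 once the sum of W-linked transcripts was a covariate.

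MEF2C and ISL1 are on the Z chromosome in the RefSeq gene table of assembly GRCg7b, which male birds carry in a pair. MEF2C lay at 7.62, 8.52, 16.2 and 12.5 RPKM in the 4 libraries with high W-linked sums (Lhasa White 2, Chahua 1, Chahua 2 and White Leghorn 1), against 17.0, 18.6, 12.4 and 14.1 RPKM in the 4 with low sums (both Linzhi Tibetan libraries, Lhasa White 1 and White Leghorn 2). These values overlapped through Chahua 2 and White Leghorn 1. The median of 420 Z-linked genes, relative to each gene's mean over the libraries, stood at log2 values of -0.20, -0.36, 0.03 and -0.24 in the 4 libraries with high W-linked sums, against 0.22, 0.19, 0.18 and 0.11 in the 4 with low sums. MEF2C itself stood at -0.68, -0.54, 0.31 and -0.04, against 0.37, 0.50, -0.04 and 0.12. Linzhi Tibetan has both its libraries on one side of this division and Chahua on the other, so for that pair the W-linked signal and breed cannot be told apart. Of the 4 libraries with high W-linked sums, only Lhasa White 2 is from a highland breed. The contrast of highland with lowland breeds is therefore unbalanced in this signal too.

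Highland breeds were set against lowland breeds because the study sought genes expressed differently in chickens of high altitude. None of the 8 tested genes passed (limma, Benjamini-Hochberg adjusted p = 0.999 for each), and 0 had an unadjusted p under 0.05, also with voom on recovered reads. Among all 11556 genes, 0.00865% passed and 3.13% had an unadjusted p under 0.05. The gene values leaned to the highland side in 7 of 8 genes, with a median log2 difference of 0.23, beside 0.03 over all tested genes. All 8 genes were read in the same libraries, so they are not separate evidence. In 0 of 8 genes did the groups not overlap, against 1.53% of all genes.

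**Figure D3:**
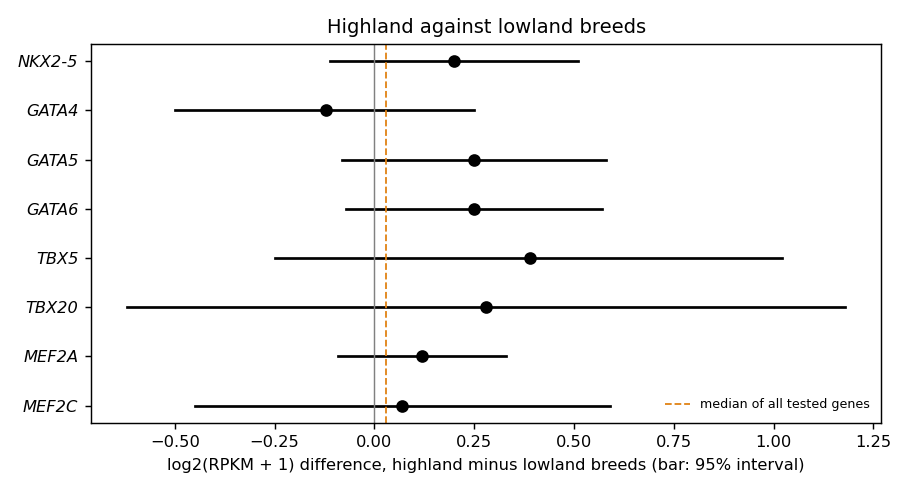
Difference in log2(RPKM + 1), highland minus lowland breeds, from limma over 4 breed means; points are estimates, bars 95% intervals and the dashed line the median of all tested genes. Each of the 8 intervals spans 0, from -0.62 to 1.18 for TBX20 and from -0.09 to 0.33 for MEF2A.

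Any difference among the 4 breeds was examined with a moderated F test, and 0 of 8 genes passed (limma, 0% of all genes). GATA6 had the smallest F test p, 0.0183 (limma adjusted p = 0.660), the only one under 0.05, where 6.52% of all genes were under it. With voom 1 gene was under 0.05 and 0 passed.

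Between single breeds 0 of 8 genes passed in any of the 6 pairs (limma, smallest adjusted p = 0.546). At an unadjusted p under 0.05 there was 1 gene in Linzhi Tibetan against Chahua and 2 in Linzhi Tibetan against Lhasa White, with 0 in the other 4 pairs, and voom gave the same counts. The share of all genes that passed was 0.00865% in Lhasa White against Chahua and 0% in the other 5 pairs. At an unadjusted p under 0.05 it was 7.06% in Linzhi Tibetan against Chahua, 7.81% in Linzhi Tibetan against Lhasa White, 6.14% in Linzhi Tibetan against White Leghorn, 5.18% in Lhasa White against Chahua, 4.04% in Lhasa White against White Leghorn and 7.87% in Chahua against White Leghorn.

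The pairs with an unadjusted p under 0.05 all involved Linzhi Tibetan. GATA6 averaged 69.5 RPKM in Linzhi Tibetan and 39.2 RPKM in Chahua, a log2 difference of 0.78 (SE 0.195, 95% interval 0.32 to 1.24, limma adjusted p = 0.603). The GATA6 difference from Lhasa White is given above. MEF2C averaged 17.8 RPKM in Linzhi Tibetan and 10.03 RPKM in Lhasa White, a log2 difference of 0.80 (SE 0.312, 95% interval 0.07 to 1.53, limma adjusted p = 0.622). W-linked transcripts summed to 0.0946 and 0.675 RPKM in Linzhi Tibetan and to 8.33 and 815 RPKM in Lhasa White.

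Linzhi Tibetan and Chahua did not overlap in 5 of 8 genes, GATA5, MEF2A, TBX5, GATA6 and MEF2C, each higher in Linzhi Tibetan, where 31.3% of all genes did not overlap. Linzhi Tibetan and White Leghorn did not overlap in 5 of 8 genes, where 50.4% of all genes did not. These genes were MEF2A, TBX20, TBX5, GATA6 and MEF2C, and they too were higher in Linzhi Tibetan. The other pairs separated 3 of 8 genes in Chahua against White Leghorn (43.1% of all genes), 3 in Lhasa White against White Leghorn (43.0%), 2 in Linzhi Tibetan against Lhasa White (41.7%) and 1 in Lhasa White against Chahua (27.7%). None of these differences passed the test. The 6 pairs share breeds and are not separate evidence.

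The spread between libraries of a breed set how large a difference could be seen. The SD within breeds was 0.720 for TBX20 and 0.495 for TBX5 on the log2 scale, larger than in 96.5% and 89.8% of tested genes. It was 0.384 for MEF2C, 0.208 to 0.261 for NKX2-5, GATA4, GATA5 and GATA6, and 0.0928 for MEF2A. The median tested gene had 0.215. The SD of the 4 breed means was largest for GATA6 at 0.351, above that of 87.0% of tested genes, and 0.0736 for MEF2A, above that of 10.9%.

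**Figure D4:**
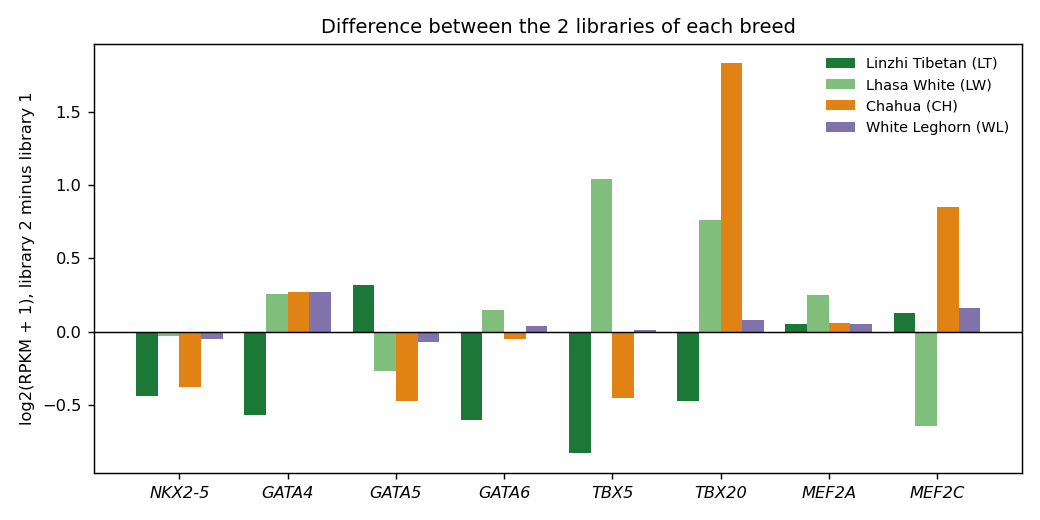
Difference in log2(RPKM + 1) between the libraries of each breed, library 2 minus library 1, for the 8 tested genes, with colours marking breeds. TBX20 differs by 1.83 in Chahua and TBX5 by 1.04 in Lhasa White, whereas White Leghorn stays within -0.07 to 0.27.

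Within Chahua, TBX20 had 3238 reads in library 2 and 781 in library 1, a ratio of RPKM of 3.62 (exact 95% counting interval 3.35 to 3.92). On the log2 scale this was 1.83, and 1.25% of tested genes differed by at least as much between these libraries. The median tested gene was 0.14 higher in Chahua 2, with medians of 0.08, 0.09, 0.14 and 0.29 over 4 equal groups of genes ordered from the shortest model to the longest. TBX20 has a model of 1323 bases, in the group with a median of 0.09. The part of gene length in its difference was not tested beyond these values.

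Within Lhasa White, TBX5 was 2.07 times as high in library 2 as in library 1 (counting interval 1.99 to 2.16) and TBX20 1.70 times (1.60 to 1.82). In contrast MEF2C was 0.613 times as high there (0.525 to 0.714). Within Linzhi Tibetan, library 1 exceeded library 2 by 1.79 times for TBX5, 1.52 times for GATA6, 1.51 times for GATA4, 1.40 times for TBX20 and 1.37 times for NKX2-5. GATA5 went the other way in that breed, with library 2 at 1.25 times library 1 (1.21 to 1.30). These ratios compare single libraries and carry no replicate check.

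Lhasa White 2 and Chahua 2, the libraries with atrial transcripts, did not share a pattern over these genes. TBX20 lay at 97.0 and 124 RPKM in them, above the range of 34.2 to 73.0 RPKM in the other 6 libraries. ISL1 was above the other 6 in Lhasa White 2. Its 5 reads in Chahua 2, against at most 3 in the other 6, lay within counting error of Linzhi Tibetan 1, with intervals of 0.0288 to 0.207 RPKM and 0.0107 to 0.151 RPKM. The remaining genes parted.

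In Lhasa White 2, MEF2A at 99.7 RPKM was above the other 6 (81.5 to 93.6 RPKM) and MEF2C at 7.62 RPKM was below them (8.52 to 18.6 RPKM), while NKX2-5, GATA4, GATA5, GATA6 and TBX5 were within their range. In Chahua 2, GATA4 at 39.9 RPKM was above them (23.7 to 35.8 RPKM). GATA5 at 151 RPKM, NKX2-5 at 51.0 RPKM, TBX5 at 41.8 RPKM and GATA6 at 38.5 RPKM were below them there. Of all tested genes, 29.4% were above and 13.0% below the other 6 libraries in Lhasa White 2, and 32.9% above and 20.3% below in Chahua 2. TBX5 was thus at 89.1 RPKM in the library with the most MYH7 and at 41.8 RPKM in the library with the next most. Its highest value, 110 RPKM, was in Linzhi Tibetan 1, where MYH7 was at 0.878 RPKM.

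Chamber markers did not move as a set in Lhasa White 2 and Chahua 2. Of 13 symbols listed for the atria (BMP10 under 2 spellings), 10 had a row, and none was at 0 in all libraries. Their summed level was 3677 RPKM in Lhasa White 2 and 2690 RPKM in Chahua 2, against 1489 to 2862 RPKM in the other 6, and NPPA, the atrial natriuretic peptide, contributed 1690 and 2419 RPKM, against 1286 to 2717 RPKM. BMP-10, a growth factor of atrial muscle, reached 290 and 22.4 RPKM, against 0.745 to 3.93 RPKM. Of 9 ventricular symbols, 8 had a row, with sums of 10794 and 24469 RPKM, against 14582 to 17607 RPKM, so that the ventricular sum was lowest in Lhasa White 2 and highest in Chahua 2. Markers of smooth muscle and arteries (6 of 8 with a row) summed to 1706 and 223 RPKM, against 181 to 271 RPKM. Most of the sum in Lhasa White 2 was ELN, at 1468 RPKM. MYH11, TAGLN, LMOD1 and ACTG2 were also above the other 6 there, and SMTN was within their range. The part of these cells in the values of TBX20, TBX5 and ISL1 was not tested.

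ISL1 was set beside markers of some of the cells known to keep it. Of 16 nerve markers, 13 had a row, with sums of 92.1 RPKM in Lhasa White 2 and 35.2 RPKM in Chahua 2, against 7.49 to 16.8 RPKM in the other 6. STMN2, a growth protein of neurons, had 32.2 and 9.78 RPKM, against 0 to 0.358 RPKM, and TUBB3, a tubulin of neurons, had 20.7 and 3.52 RPKM, against 0.0756 to 2.04 RPKM. Both were picked out after their values were seen. Of 10 sinus node and conduction markers, all had a row, with sums of 66.3 and 50.5 RPKM, against 45.2 to 55.9 RPKM. Among them SHOX2, a sinus node factor, had 1.96 RPKM (25 reads) in Lhasa White 2, 0 in Chahua 2 and 0 to 0.220 RPKM (at most 3 reads) elsewhere. HCN4, the pacemaker channel, had 0.427 and 0.589 RPKM, against 0.231 to 0.839 RPKM, from only 4 to 16 reads per library. Of the 4 that passed the filter, TBX18 is also one of the fibroblast and epicardial genes. It was above the other 6 in both libraries (17.1 and 12.6 RPKM, against 8.30 to 10.6 RPKM). TBX2 was above them in Lhasa White 2 and below them in Chahua 2, and TBX3 and GJC1 were within their range. The part of nerve or sinus node cells in the ISL1 value was not tested.

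**Figure D5:**
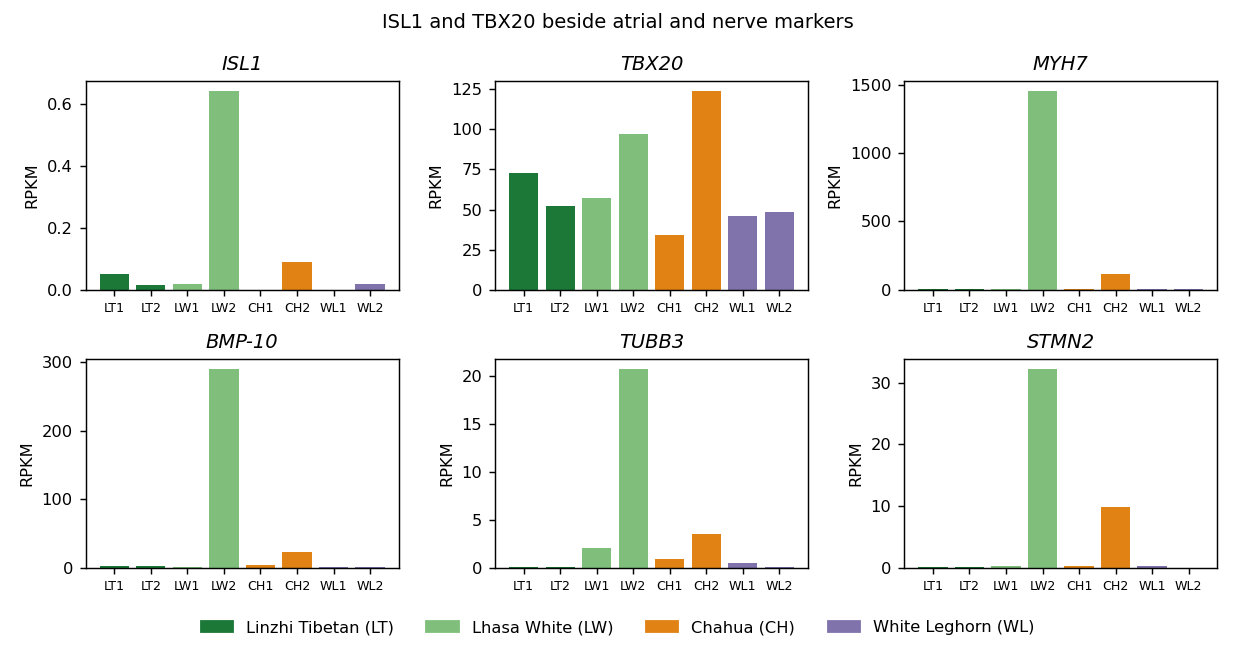
RPKM (linear axes from 0) of ISL1 and TBX20 beside the atrial markers MYH7 and BMP-10 and the neuron markers TUBB3 and STMN2, in the 8 libraries coloured by breed. The 4 markers are highest in Lhasa White 2 and next highest in Chahua 2, while TBX20 is highest in Chahua 2. ISL1 is highest in Lhasa White 2, and its 5 reads in Chahua 2 lie within counting error of Linzhi Tibetan 1.

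Other factors of heart development were examined as a list of 49 symbols, of which 40 had a row and 34 passed the filter. Between highland and lowland breeds 0 of 34 passed (limma), 2 had an unadjusted p under 0.05, and 20 were higher and 14 lower, with a median log2 difference of 0.09. Between breeds 0 of 34 passed in any pair or in the F test. Wide ranges over the libraries came from NR2F1, IRX4 and FOXC2. NR2F1, an atrial nuclear receptor, had 23.3 RPKM in Lhasa White 2 and 6.97 RPKM in Chahua 2, against 2.11 to 4.85 RPKM in the other 6. IRX4, a ventricular homeodomain factor, had 16.2 RPKM in Lhasa White 2 and 61.7 RPKM in Chahua 2, against 64.9 to 90.9 RPKM. FOXC2, a factor of vessels and outflow tract, lay at 8.52 and 1.63 RPKM, against 0.913 to 1.78 RPKM. HAND1, the other HAND gene, which was picked out after its values were seen, had 17.3 and 40.5 RPKM in Linzhi Tibetan, 33.1 and 17.3 RPKM in Lhasa White, 28.7 and 25.2 RPKM in Chahua, and 37.1 and 31.9 RPKM in White Leghorn.

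Genes known as targets of these factors formed a list of 30 symbols, of which 24 had a row (25 rows, since MYL2 has 2). Between highland and lowland breeds 0 of 25 passed (limma), 0 had an unadjusted p under 0.05, and 9 were higher and 16 lower, with a median log2 difference of -0.10. Between breeds 0 of 25 passed in any pair or in the F test. The widest ranges belonged to MYH7, MYL4, ANKRD1 and MYH15. MYL4, an atrial light chain in mammals, had 18.9 RPKM in Lhasa White 2 and 5.46 RPKM in Chahua 2, against 3.38 to 6.90 RPKM. MYH15, a ventricular myosin, lay at 1288 and 4949 RPKM, against 3198 to 4134 RPKM. ANKRD1, a stretch-sensitive target of NKX2-5 and GATA4, lay at 10.5 and 4.22 RPKM, against 9.90 to 20.02 RPKM.

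Genes with the most similar profiles were sought for the 3 factors with the widest range, by the root mean square distance between log2 profiles over 8 libraries, each centred on its own mean. For TBX20 they were ATRNL1, COL15A1 and PDE1C, at distances of 0.134, 0.143 and 0.168, where the median gene was at 0.563. COL15A1, a collagen of basement membranes, had 8.90 and 5.55 RPKM in Linzhi Tibetan, 6.86 and 9.98 RPKM in Lhasa White, 4.41 and 16.6 RPKM in Chahua, and 5.44 and 4.73 RPKM in White Leghorn. For TBX5 they were ASPR, ROR1 and SNORD87, at 0.179, 0.183 and 0.190 (median gene 0.491). SNORD87 is a small nucleolar RNA gene. ROR1, a receptor of the Wnt family, had 20.5 and 15.6 RPKM in Linzhi Tibetan, 12.0 and 20.01 RPKM in Lhasa White, 12.5 and 9.72 RPKM in Chahua, and 12.6 and 11.8 RPKM in White Leghorn. For MEF2C they were APC, PLAGL2 and FEM1C, at 0.111, 0.133 and 0.138 (median gene 0.449). APC and FEM1C are Z-linked in the same gene table as MEF2C, and PLAGL2 is not. The closest of all tested genes with a symbol are near by selection, and their Z linkage was not tested against that of all genes. APC, which holds back Wnt signalling, had 6.79 and 6.57 RPKM in Linzhi Tibetan, 5.17 and 2.87 RPKM in Lhasa White, 2.77 and 6.88 RPKM in Chahua, and 4.02 and 5.18 RPKM in White Leghorn.

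Among the factors themselves, the closest profiles were those of NKX2-5 and GATA6, at a distance of 0.211, and the farthest were those of GATA5 and TBX20, at 0.731. TBX5 and TBX20, both T-box factors, were 0.682 apart, and TBX5 took from 25.2% of their summed RPKM in Chahua 2 to 62.6% in Chahua 1. Profiles of members share libraries and depth, and these distances are descriptions only.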

How the data were processed

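Per the labels' protocols, heart RNA was isolated with TRIzol and made into Illumina messenger RNA libraries. The authors deposited 1 table of RPKM values, as its column names state. The submitters' processing notes name BWA, with no version. The genome build, with the gene models and the way reads were counted, is not given in the sources used here. Values of the 8 libraries within a gene are whole multiples of 1 read, and with fitted library totals 15872 of 15873 genes gave whole reads within 0.05 reads.

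Genes with at least 1 RPKM in at least 2 libraries (11556) were tested on log2(RPKM + 1), which makes changes of low genes look smaller than they are. Breed means were estimated together from the 8 libraries with limma 3.58.1 (R 4.3.3) and a variance trend (4 residual degrees of freedom), with Benjamini-Hochberg adjustment of p over all tested genes in each contrast at a threshold of 0.05. Python 3.11.15 with SciPy 1.17.1 gave intervals and plots. The fit was also run on simulated data, drawn with independent noise and the same spread in every library of a gene. Those data lack the W-linked and atrial differences of the real libraries, so that run does not bear on their effect.

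The genes and lists were chosen with earlier results of these data known. All members are named, with the 4 members of each list that vary most, of which 1 is not reported here, and the 3 closest profiles of the 3 most variable members. Z linkage was looked up by symbol in RefSeq's GRCg7b gene table, and no coordinates were used. Alternatives were another pseudocount, other filters, median-ratio scaling, voom on recovered reads, a replicate block, a W-linked covariate and omission of libraries.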

Additional observations from a re-analysis of the deposited data

Results flagged for a closer look

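In 4 of the 18 sets of 4 highland or 4 lowland libraries, 1 library lay far from the rest by Dixon's criterion. Its limit is set for about 1 in 20 independent sets of normal values, whereas these sets share the same libraries. The share of all genes flagged in this way was not computed, so the count does not measure an excess. NKX2-5 was at 90.1 RPKM in Linzhi Tibetan 1, with the nearest highland library at 66.8 RPKM, and at 51.0 RPKM in Chahua 2, with the nearest lowland library at 64.4 RPKM. TBX20 was at 124 RPKM in Chahua 2, with the nearest lowland library at 48.7 RPKM. ISL1 was at 0.642 RPKM in Lhasa White 2, with the nearest highland library at 0.0516 RPKM.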

How the results depend on the processing

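Under the 16 alternatives no member passed in the contrast of highland with lowland breeds, in the F test or in a breed pair. Adjusted p went down to 0.462, 0.254 and 0.0927 in these comparisons, the last for TBX20 in Chahua against White Leghorn without Chahua 1 (log2 difference 1.37), which assumes that the lone Chahua library varies like the other breeds. NKX2-5, GATA5, GATA6, TBX5 and MEF2A kept a positive highland difference under all 16 (0.02 to 0.64). The direction turned for GATA4 without Linzhi Tibetan 2 (0.02), for TBX20 without Chahua 1 (-0.18), and for MEF2C without Lhasa White 1 (-0.09), without Chahua 1 (-0.14) and with the W-linked covariate (-0.10), and the cause was not tested. Without 1 library at a time, NKX2-5 ran from 0.09 to 0.31, GATA5 from 0.13 to 0.37, GATA6 from 0.10 to 0.40, MEF2A from 0.06 to 0.18, GATA4 from -0.27 to 0.02, TBX20 from -0.18 to 0.74, TBX5 from 0.13 to 0.64 and MEF2C from -0.14 to 0.29. The labels number the libraries of each breed 1 and 2. Across genes, the difference of library 2 minus library 1 correlated between breeds at -0.33 to 0.17, which shows no pairing by number. It cannot exclude one, because these differences also hold the W-linked and atrial differences within breeds. With the replicate block 0 members passed. Over all genes, 1 passed between highland and lowland breeds, and 0 did under 11 of the 16 alternatives. Over all genes the counts of the alternatives ran from 0 to 52 in Linzhi Tibetan against Lhasa White, where 0 passed with all libraries. Depth limits ISL1, which had 0 to 5 reads in 7 of 8 libraries.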
